A study of Mus musculus with 11 samples.

Results

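The Pax genes 1 to 9 are 9 protein-coding genes, *Pax1* to *Pax9*, chosen by name among the 21755 protein-coding genes of the GENCODE annotation on chromosomes 1 to 19 and X. Each was described by the H3K27me3 peaks over its gene body and 10 kb either side, called here its locus. The peaks came from the medial (MGE), caudal (CGE) and lateral (LGE) ganglionic eminences (GEs), 3 zones of neurogenesis on the ventral side of the forebrain, and from the somatosensory cortex (CTX), which lies dorsal to them. The 11 samples were nuclei of untreated wild-type C57BL/6J mouse embryos, with tissue of several embryos pooled. Their titles number replicates 1 and 2 in every region, and replicate 2 of CGE, LGE and CTX has 2 samples, so these regions have 3 samples from 2 numbered replicates and MGE has 2 samples. The labels name E12.5 and E14.5 as ages of the tissue without assigning an age to each sample, and the study describes E12.5 tissue for this assay. H3K27me3 was profiled by CUT&Tag, in which an antibody directs a transposase to nucleosomes that carry the mark. Broad peaks were called by the authors on the merged samples of each region, so each region is 1 list, no value has a replicate error, and the lists hold no read counts from which a counting interval could be made. A comparison of 1 list with the other 3 could not go below p = 0.25 in a one-sided exact permutation test over the lists, so no test was run and all differences are descriptions of these 4 lists. Where 4 values follow each other unnamed, they stand for MGE, CGE, LGE and CTX in that order. A tissue list can also mix cell types, and a locus marked in a smaller share of cells cannot be told apart from one marked more weakly in all cells.

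Pax proteins are transcription factors that bind DNA through a paired domain, and they direct the formation of organs and of territories in the nervous system. They fall into subgroups by sequence: *Pax1* with *Pax9*, *Pax2* with *Pax5* and *Pax8*, *Pax3* with *Pax7*, and *Pax4* with *Pax6*. In the embryonic telencephalon *Pax6* is the member known for expression in progenitors of the dorsal side, where it acts in cortical progenitors and in keeping the boundary between pallium and subpallium. H3K27me3 is deposited by Polycomb repressive complex 2 at genes that are held silent, often developmental regulators with CpG-rich start sites, and it spreads in broad domains.

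The data turned on a few start sites, which are shown here as the 250 bases upstream of an annotated start, 5′ to 3′ on the strand of the gene in GRCm38, with every CG dinucleotide in capitals. For *Pax6*, the first window lies before the first start (chr2:105668646-105668895, plus strand) and was wholly covered in MGE, CGE and LGE and not covered in CTX. The second lies before the first protein-coding start of a group farther inside the gene (chr2:105674941-105675190, plus strand). It was covered over 100% of its bases in MGE and 95.2% in CGE, and was not covered in LGE or CTX. The last of the 3 lies before an internal group of starts (chr2:105682213-105682462, plus strand) and was wholly covered in all 4 lists. The window of *Pax5* (chr4:44710695-44710944, minus strand) is shown because 26.4% of it was covered in LGE and 100% in the other lists. That of *Pax8* (chr2:24475600-24475849, minus strand) is shown because it lay under a peak among the strongest of every list by q-value.
Pax6 first start: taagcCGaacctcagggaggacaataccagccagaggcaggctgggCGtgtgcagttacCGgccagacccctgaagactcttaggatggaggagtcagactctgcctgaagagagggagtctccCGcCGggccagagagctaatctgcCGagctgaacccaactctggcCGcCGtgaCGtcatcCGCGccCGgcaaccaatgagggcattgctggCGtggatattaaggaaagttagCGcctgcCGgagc
Pax6 second group of starts: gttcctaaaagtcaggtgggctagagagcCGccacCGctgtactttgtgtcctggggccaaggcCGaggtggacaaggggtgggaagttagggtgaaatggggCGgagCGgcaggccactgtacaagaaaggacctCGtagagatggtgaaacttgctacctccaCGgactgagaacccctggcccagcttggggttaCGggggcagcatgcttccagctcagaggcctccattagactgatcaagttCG
Pax6 internal starts: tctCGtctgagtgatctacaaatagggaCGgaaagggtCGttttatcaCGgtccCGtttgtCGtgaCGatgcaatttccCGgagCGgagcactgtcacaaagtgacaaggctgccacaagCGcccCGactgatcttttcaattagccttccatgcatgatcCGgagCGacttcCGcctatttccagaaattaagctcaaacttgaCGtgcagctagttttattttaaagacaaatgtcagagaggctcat
Pax5: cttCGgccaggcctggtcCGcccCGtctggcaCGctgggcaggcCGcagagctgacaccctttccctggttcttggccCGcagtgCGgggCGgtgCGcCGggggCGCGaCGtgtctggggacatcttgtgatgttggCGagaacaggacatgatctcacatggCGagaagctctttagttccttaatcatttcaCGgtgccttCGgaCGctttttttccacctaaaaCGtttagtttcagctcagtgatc
Pax8: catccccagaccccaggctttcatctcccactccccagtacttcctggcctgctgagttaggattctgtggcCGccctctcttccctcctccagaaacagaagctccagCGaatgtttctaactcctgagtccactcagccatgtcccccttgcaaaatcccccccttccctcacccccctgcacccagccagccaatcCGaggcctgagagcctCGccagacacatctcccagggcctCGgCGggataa
The second *Pax6* window was read from the RefSeq copy of the GRCm38 genome, and the others came from the RefSeq promoter table of GRCm38.p6, in which 7 of the 9 Pax genes matched by symbol with 10 windows. The motif searched was CG, which reads the same on both strands. The windows before the first and the internal starts of *Pax6* held 15 CG each, a number that 27.3% of the 32851 promoters in that table reached in as many bases. The second held 9, reached by 40.3% of promoters. The *Pax5* window held 19, reached by 19.7%, and the *Pax8* window held 6, reached by 50.4% and equal to the median of the table. The windows that differed between lists thus held from 9 to 19 CG. Pax windows that were wholly covered in every list held from 5 to 25, both at *Pax2*, a range that includes these numbers.

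Every Pax locus carried H3K27me3 peaks in every region. All 9 loci were touched by a peak in all 4 lists, against 36.1% of all protein-coding genes. The 9 loci together held 62 peaks (MGE), 68 (CGE), 70 (LGE) and 65 (CTX), and the covered sequence came to 169, 195, 161 and 157 kb. The median coverage of the 9 was 22.5% (MGE), 25.4% (CGE), 22.0% (LGE) and 18.9% (CTX), while the median over all protein-coding genes was 0 in each list. Among all loci that were touched in every list, the median coverage was 4.88%. CTX had the lowest median and the fewest covered bases of the 9 loci, although over the genome the MGE list was the smallest, with 15384 peaks over 24.5 Mb against 31.2 Mb in CTX.

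At promoters, taken as the 2 kb upstream of the first annotated start, 6 of the 9 Pax genes (*Pax2*, *Pax3*, *Pax5*, *Pax6*, *Pax7* and *Pax9*) had at least 50% of their bases under peaks in all 4 lists. The same held for 4.72% of protein-coding genes. In CGE a seventh promoter, that of *Pax4*, passed this limit with 57.6% of its bases, and in the other lists it had between 42.2% and 49.2%. The start base itself was covered in all 4 lists at *Pax1*, *Pax2*, *Pax3*, *Pax8* and *Pax9*, which is 5 genes of 9 against 14.5% of all genes. One gene, *Pax6*, had its first start covered in the 3 GE lists and not in CTX, a pattern found at 0.883% of all genes. *Pax4* and *Pax7* had no annotated start under a peak in any list.

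**Figure D1:**
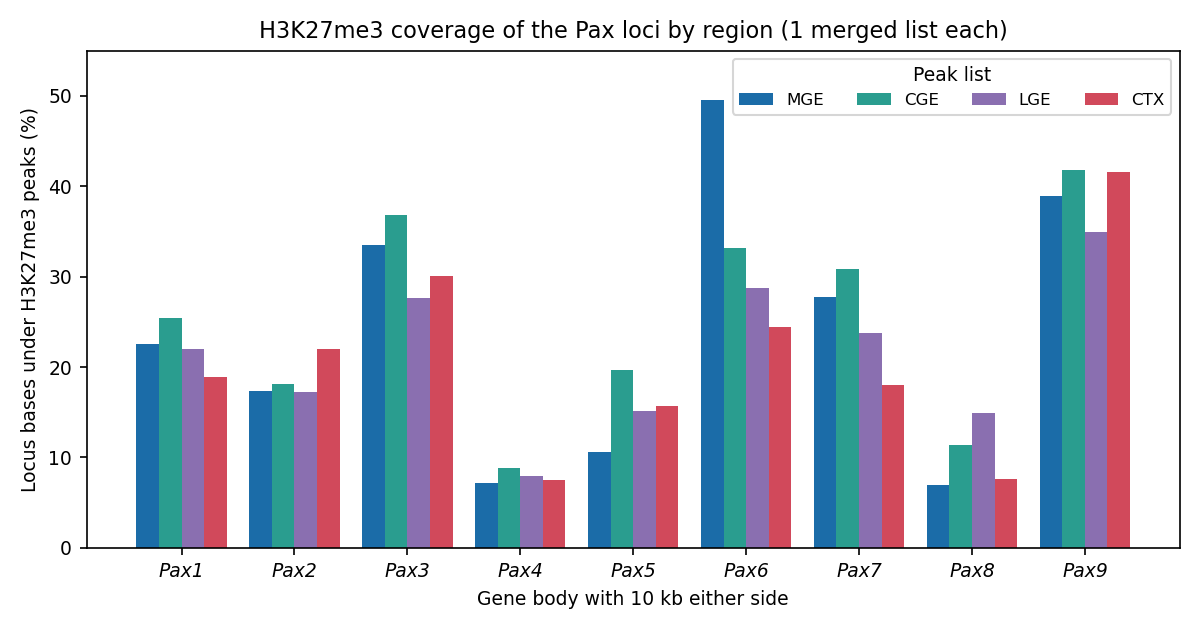
Percentage of the bases of each Pax locus (gene body with 10 kb either side) under H3K27me3 peaks, with 1 bar for each of the MGE, CGE, LGE and CTX lists and no error bars because each list is 1 merged set. *Pax6* falls from 49.5% in MGE to 24.4% in CTX, while *Pax4* lies between 7.14% and 8.88% in all lists.

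*Pax6* had the widest range of coverage between the regions in percentage points. As a ratio of the highest to the lowest list, *Pax8* differed slightly more, 2.16 against 2.03. The *Pax6* locus (gene body at chr2:105668900-105697364, plus strand, ENSMUSG00000027168.21) was covered over 49.5% of its bases (MGE), 33.2% (CGE), 28.8% (LGE) and 24.4% (CTX). The coverage fell in that order and was 2.03 times as high in MGE as in CTX. The CTX value differed from the mean of the GEs, 37.2%, by -12.76 percentage points, and 38 of the 21755 loci had a more negative difference. Coverage in the order MGE, CGE, LGE, CTX with a fall of at least 20 points was found at 0.0368% of loci, and among the Pax genes at *Pax6* alone. *Pax6* was also the 1 Pax locus that stood at least 5 points above all other lists in MGE, as 0.313% of loci did. The CTX value minus that of LGE, the next lowest list, was -4.43 points, and *Pax6* did not reach the 5 points used here to call a locus lowest. It did reach them when peaks with q-values of 0.001 or more were left out and when peaks under 3 kb apart were joined. The same held when the lists were brought to equal covered bases, and with flanks of 0 or 2 kb. *Pax6* did not reach them with equal numbers of peaks, at -4.43 points, or with a flank of 50 kb, at -1.67 points.

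The gene body carried most of this difference. The body was covered over 57.5% (MGE), 32.1% (CGE), 25.3% (LGE) and 19.4% (CTX), whereas the 10 kb upstream were covered over 70.8%, 69.6%, 67.7% and 63.2%. Introns went from 58.3% in MGE to 12.0% in CTX. Of the 24.1 kb covered in any list, 47.8% was covered in all 4. A further 7891 bases were covered in MGE alone and 2329 in the 3 GEs but not in CTX, while 0 bases were covered in CTX alone. By bases shared over bases covered in either list (the Jaccard index), the MGE and CTX peaks of *Pax6* had 48.8% in common and those of CGE and LGE 85.9%. Over chromosomes 1 to 19 and X the same pairs of lists had 46.5% and 60.1% in common. The overlap of MGE and CTX at *Pax6* was thus near that of the whole lists.

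In MGE a single peak of 11446 bases ran from -2.48 to 8.96 kb of the first start (negative values lie upstream). In CGE the corresponding sequence held separate peaks from -2.54 to 1.46 kb and from 3.12 to 6.28 kb, and in LGE from -2.58 to 1.28 kb and from 3.19 to 5.25 kb. In CTX the first of these peaks ended 302 bases before the start, so that the start, covered in each GE, and the sequence up to 3.47 kb were free of peaks. The next CTX peak ran from 3.47 to 5.47 kb. MGE also had a peak at 21.1 to 21.7 kb and one from 29.5 kb, past the end of the gene, with no counterpart in the other lists.

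The annotation gives *Pax6* 24 distinct transcript starts. Of these, MGE peaks covered 20, CGE peaks 12, LGE peaks 11 and CTX peaks 8, and these 8 were covered in all 4 lists. The first start, at position 105668900, belongs to protein-coding transcripts and overlaps the antisense gene *Pax6os1*, and the mark cannot be assigned to a strand. The first protein-coding start of the second group, at position 105675191, lies 6291 bases inside the gene. It was under a peak in MGE alone, with the nearest peak 13 bases away in CGE, 820 in CTX and 1036 in LGE. The call in CGE thus rests on a peak edge a few bases away. The start of a processed transcript 6209 bases inside the gene was covered in both MGE and CGE. The internal starts between 13563 and 13737 bases were covered in every list. *Pax6* is known to be transcribed from several promoters, of which an internal one gives a form without the paired domain.

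**Figure D2:**
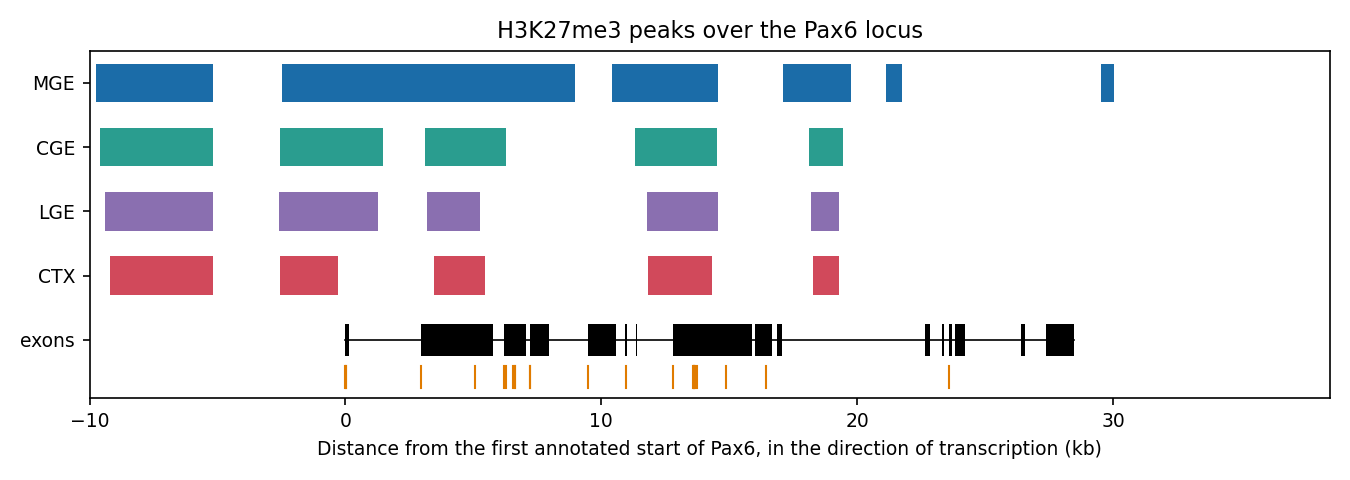
H3K27me3 peaks (coloured blocks) over the *Pax6* locus in each list, against the distance in kb from its first annotated start, with exons of all transcripts in black and transcript starts as orange ticks. The MGE peak of 11446 bases spans the first and second groups of starts, and the CTX peak upstream ends 302 bases before the first start.

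Segments of at least 200 bases that were covered in all 4 lists allowed the strength of the peaks to be set side by side. MACS gives each peak a q-value, here as -log10 q, and each peak was also ranked within its own list, since q-values depend on depth and lists were made separately. These values belong to whole peaks, so a peak that spanned several segments was counted at each of them. The MGE peak of 11446 bases was such a case. At *Pax6* there were 5 segments covered in all 4 lists. The one just upstream of the first start (-2.48 to -0.302 kb) was among the strong peaks of every list, with -log10 q of 19.9 (MGE), 57.3 (CGE), 53.6 (LGE) and 48.5 (CTX). In CTX 93.1% of peaks were weaker than it. The other 4 were weakest in CTX by both measures. At 3.47 to 5.25 kb the -log10 q was 19.9, 13.4, 12.8 and 1.89, and the CTX peak exceeded 22.0% of its list against 72.0% to 86.8% in the GEs. At 11.8 to 14.3 kb, over the internal starts, it was 27.9, 34.0, 22.3 and 6.76. The fold enrichment of the same peaks did not follow this order: over the internal starts it was 1.89 (MGE), 2.11 (CGE), 2.67 (LGE) and 2.54 (CTX).

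*Pax7*, which acts in neural crest, dorsal neural tube and muscle progenitors, was the 1 Pax locus at least 5 points lower in CTX than in each GE, as 0.464% of all loci were, and it was not so called with a flank of 50 kb. Its locus (gene body at chr4:139737062-139833528, minus strand) was covered over 27.8% (MGE), 30.8% (CGE), 23.8% (LGE) and 18.0% (CTX). CTX held 9 peaks against 13 in each GE, and 5059 bases were covered in the 3 GEs and not in CTX. By any margin, CTX was lowest at *Pax1*, *Pax6* and *Pax7*, 3 of the 9 loci, against 9.59% of all loci. At *Pax7* 5 of 7 shared segments were lowest in CTX by -log10 q and 2 in MGE. By rank within the list 6 of 7 were lowest in CTX. The exception was the peak from 2.52 to 7.31 kb, where 94.6% of the CTX peaks were weaker. As at *Pax6*, the fold enrichment of the same peaks did not follow this rank throughout. At the segment ending at 13.6 kb it was lowest in CTX, with 1.70 (MGE), 1.66 (CGE), 1.81 (LGE) and 1.58 (CTX). At the segment ending at 21.7 kb it was highest in CTX, with 1.73, 1.71, 1.95 and 2.21. For comparison, 17 of the 53 shared segments of the 9 loci, *Pax6* and *Pax7* included, ranked lowest in CTX. In MGE 17 did so, in CGE 11 and in LGE 8. By the -log10 q itself, 36 of the 53 were lowest in MGE and none in CGE. By the depths in the study's methods, MGE had the fewest reads of the regions and CGE the most, and the part of depth in these values was not tested.

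The start of *Pax7* was free of peaks in every list. The upstream peak ended 57 bases before the first start in MGE, 317 bases before it in both CGE and CTX and 401 in LGE, and the next peak began 2.36 to 2.52 kb inside the gene. The promoter upstream remained covered over 97.2% in MGE, over 84.2% in both CGE and CTX, and somewhat less in LGE. *Pax7* in all regions and the *Pax6* locus in CTX thus had a gap at the start between flanking peaks, as did *Pax5* in LGE.

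**Figure D3:**
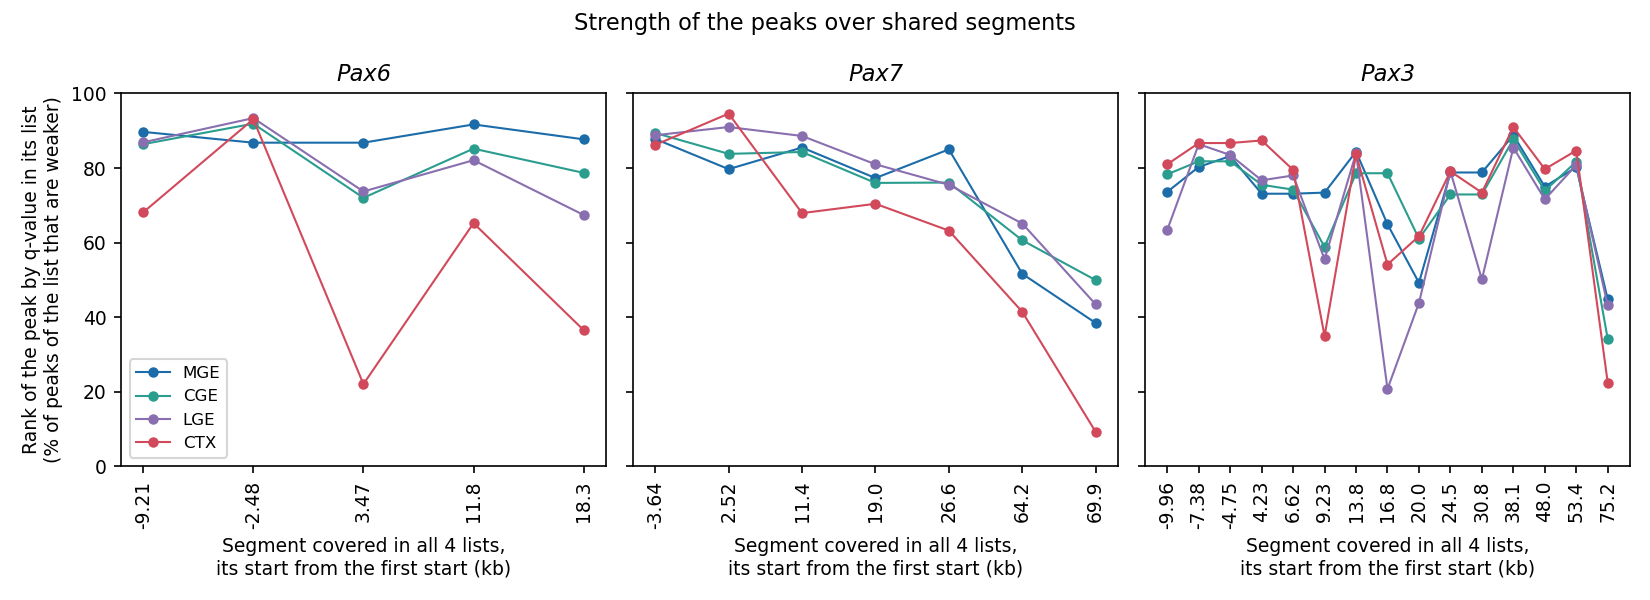
Rank of the peak over each segment covered in all 4 lists, as the percentage of peaks of its own list with a lower -log10 q, for *Pax6*, *Pax7* and *Pax3*. The horizontal axis gives the start of each segment in kb from the first annotated start, segments evenly spaced. The CTX points are lowest at 4 of 5 *Pax6* segments and 6 of 7 *Pax7* segments, and at 2 of 15 *Pax3* segments.

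*Pax3*, the paralog of *Pax7* that acts in the neural crest and dorsal neural tube, did not share this pattern. Its locus was covered over 33.5% (MGE), 36.8% (CGE), 27.6% (LGE) and 30.1% (CTX), in 13, 13, 16 and 15 peaks. The promoter was wholly covered in all 4 lists, and a peak ran over the start, from -4.78 to 2.21 kb in MGE and from -7.38 to 2.17 kb in CTX. Of its 15 shared segments, 2 ranked lowest in CTX. The lowest coverage was in LGE, where the block from 24.5 to 32.1 kb in MGE was cut into peaks at 24.5 to 27.7 and 30.8 to 33.4 kb, as it was in CTX. *Pax3*, *Pax6* and *Pax9* were the 3 Pax loci covered over at least 20% in all 4 lists, as 1.89% of all loci were.

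*Pax9* and *Pax1*, which act in the skeleton, with *Pax9* also needed in teeth and the pharyngeal pouches, carried wide peaks over their starts in all regions. The *Pax9* locus was covered over 38.9% (MGE), 41.8% (CGE), 35.0% (LGE) and 41.6% (CTX). One peak covered its promoter and first start in each list, with a width of 9759, 9638, 9497 and 9783 bases, and 66.5% of the bases covered in any list were covered in all. The *Pax1* locus was covered over 22.5%, 25.4%, 22.0% and 18.9% in the same order of lists. Its peak over the start began at -220 bases, the same base in all 4 lists, and this was the 1 peak edge among the 9 loci that all lists shared. The *Pax1* promoter was covered only in part, between 20.3% in CTX and 28.1% in MGE, while 72.0% to 74.6% of its exon bases were covered. The strongest *Pax1* peak lay downstream of the start, from 10.8 to 13.0 kb where all lists overlapped, with -log10 q of 40.9, 63.7, 97.8 and 81.1.

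*Pax2*, *Pax5* and *Pax8*, which act in the midbrain-hindbrain boundary, kidney, thyroid and B cells, differed among themselves. The *Pax2* locus was covered over 17.4% (MGE), 18.1% (CGE), 17.2% (LGE) and 22.0% (CTX), and was the Pax locus farthest above the GE mean in CTX, by 4.43 points. This value was 1.50 with peaks under 3 kb apart joined, 1.69 with no flank and 1.26 with a flank of 2 kb. Most of the difference lay upstream, where CTX had a peak of 13221 bases from -15.7 to -2.43 kb. In the GEs this sequence was broken up, and the 10 kb upstream were covered over 63.0%, 60.2% and 44.5% against 87.5% in CTX. The start and the 3′ end of *Pax2* (78.3 to 83.6 kb) were covered in all 4 lists, the latter with -log10 q of 27.6, 55.2, 59.5 and 68.9 in MGE, CGE, LGE and CTX.

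The *Pax5* locus, the longest of the 9 at 206 kb, was covered over 10.6% (MGE), 19.7% (CGE), 15.1% (LGE) and 15.7% (CTX), in 9, 16, 13 and 15 peaks. MGE lacked 4822 bases that the other 3 lists covered, and CGE alone covered 8358. Several peaks inside the gene were weak. In MGE the peaks at 80.2, 139 and 148 kb had -log10 q of 1.29, 1.24 and 1.26. At the first start LGE had a gap from -392 to 758 bases, as the LGE value of its printed window shows, and 2 of 7 starts were covered in LGE against 5 in each other list. The LGE peak upstream of that gap was the strongest at *Pax5* in that list, with -log10 q of 43.4.

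*Pax8* had low coverage but the strongest peak of the family by -log10 q. Its locus was covered over 6.93% (MGE), 11.4% (CGE), 14.9% (LGE) and 7.61% (CTX). The peak over its start, and over its printed window, had -log10 q of 68.7, 138, 123 and 108, and at least 99.2% of the peaks in each list were weaker. By fold enrichment, 2.98, 2.75, 3.12 and 2.78, it was an average peak, above 49.1% to 57.6% of the peaks in each list. The peak was 3455, 3743, 3526 and 3646 bases wide. The differences in coverage came mainly from peaks farther inside and past the gene, where the -log10 q reached 8.07 at most and LGE held 6 such peaks. The *Pax8* and *Pax5* loci had the lowest shares of sequence common to all lists, with 26.9% and 37.6% of the covered bases, against 52.3% over the 9 loci together.

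*Pax4*, which acts in endocrine cells of the pancreas and is the paralog of *Pax6*, was the 1 member with no marked base inside the gene. It had a single peak upstream of the gene in each list and its locus was covered over 7.14% (MGE), 8.88% (CGE), 7.99% (LGE) and 7.51% (CTX). The peak ran from -3.08 to -1.16 kb in MGE and from -3.25 to -0.849 kb in CGE, with -log10 q of 4.76, 22.0, 6.48 and 10.5 in the 4 lists. The spread of 1.74 points between the lists was the smallest of the family, and that of *Pax6*, 25.05 points, the largest, larger than at 99.9% of all loci.

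**Figure D4:**
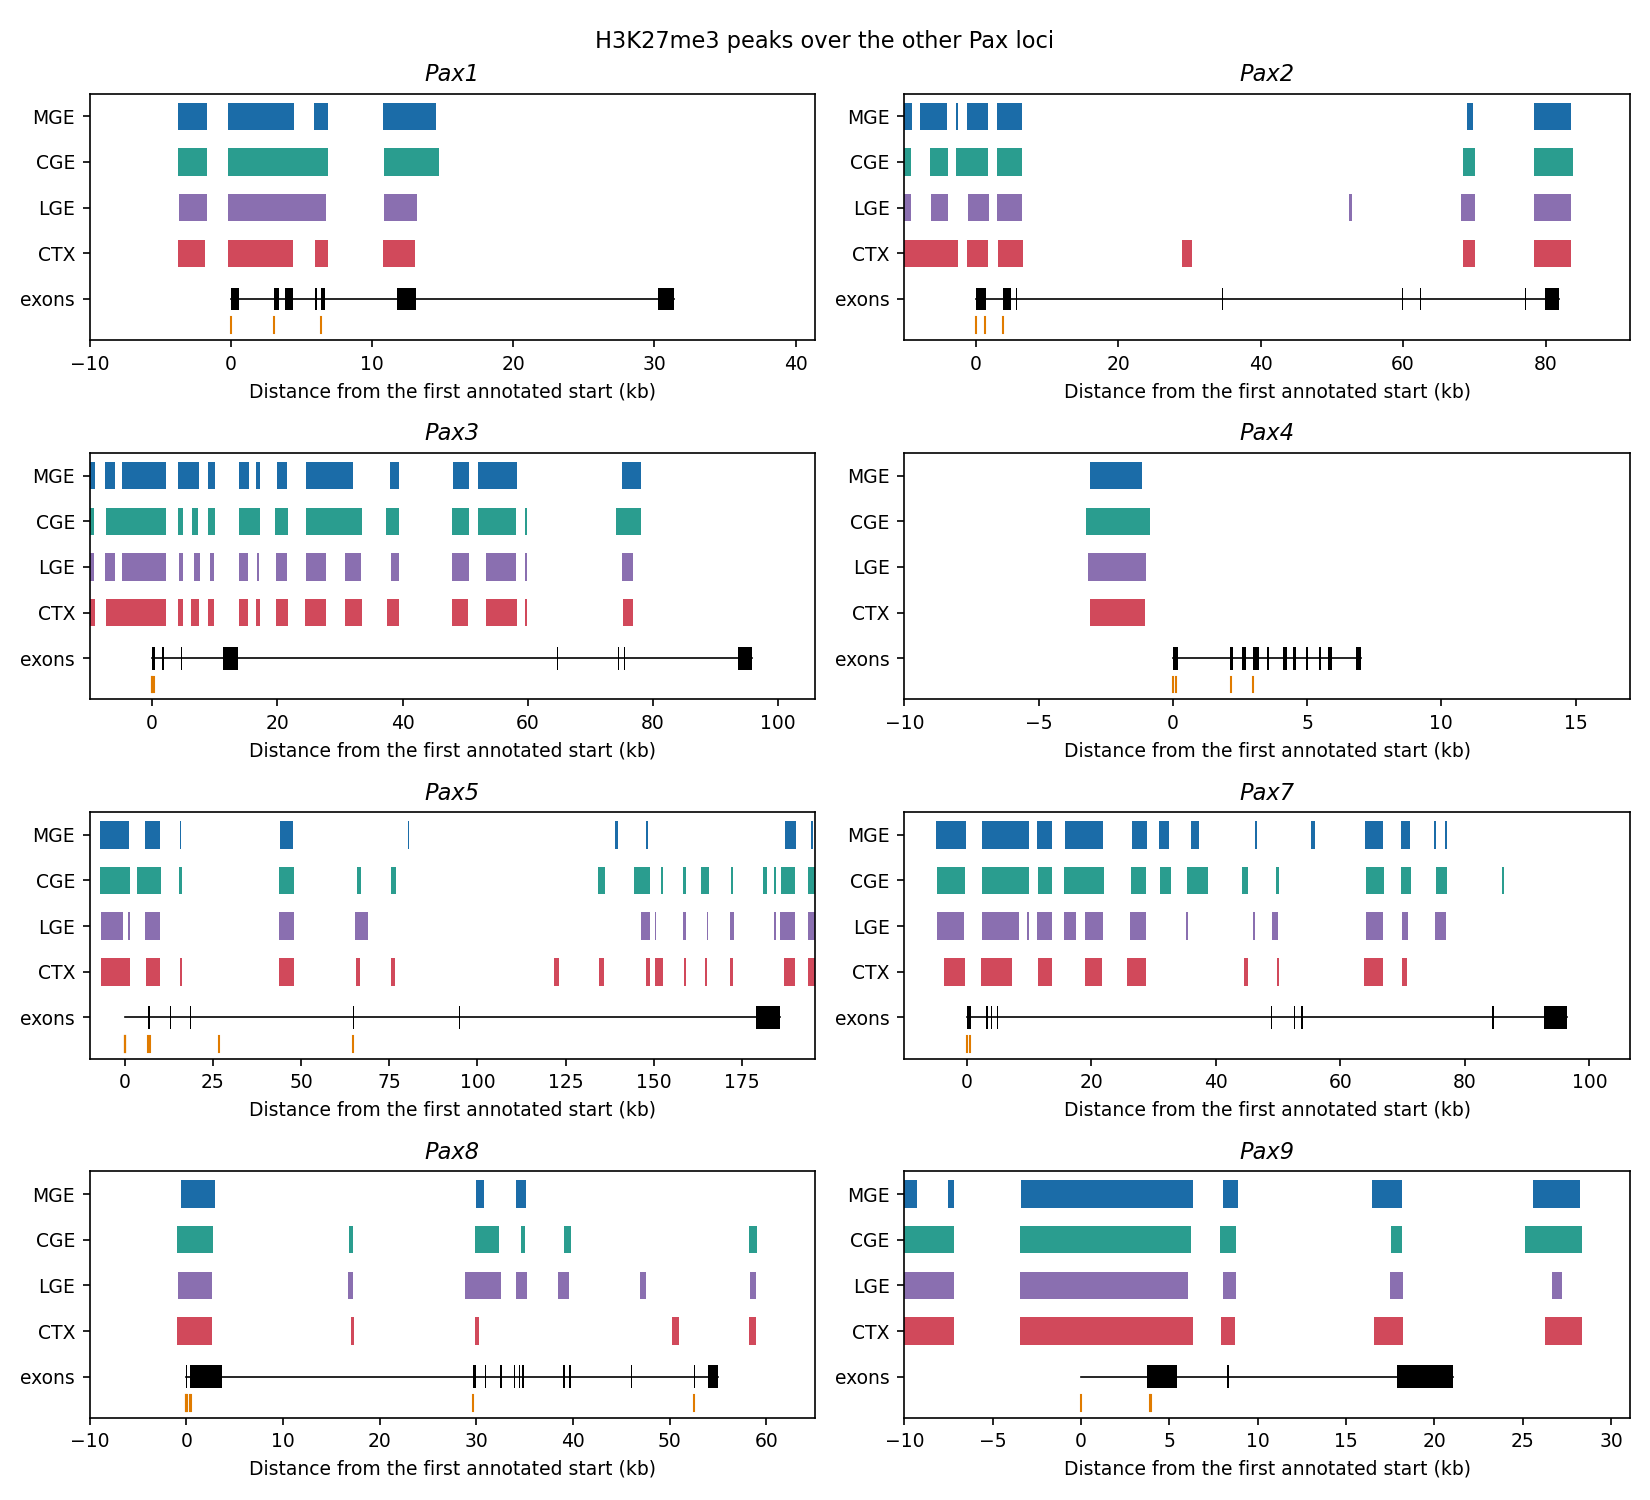
H3K27me3 peaks (coloured blocks, cut at 10 kb either side of the gene) over the 8 Pax loci other than *Pax6*, with the distance in kb from the first annotated start, exons in black and transcript starts as orange ticks. Peaks at the 5′ end recur in all lists, *Pax2* has a 13221-base peak upstream in CTX, and *Pax7* has a gap at its start in all 4 lists.

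The remaining calls of a locus that stood at least 5 points apart from all other lists found no Pax gene. Lower coverage was called at 0.662% of loci in MGE, 0.0230% in CGE and 0.216% in LGE. Higher coverage was called at 1.40% in CGE, 0.722% in CTX and 0.133% in LGE. Across the family, 2 of the 9 loci therefore stood apart by this rule. *Pax6* was higher in MGE, as 0.313% of all loci were, and *Pax7* was lower in CTX, as 0.464% were. The share of all loci found by any of these calls together was not counted. The difference between CTX and the mean of the GEs was within 1 point of 0 at 59.3% of the 12122 loci with a peak in any list. Among the Pax genes it was so at *Pax4* and *Pax5*.

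**Figure D5:**
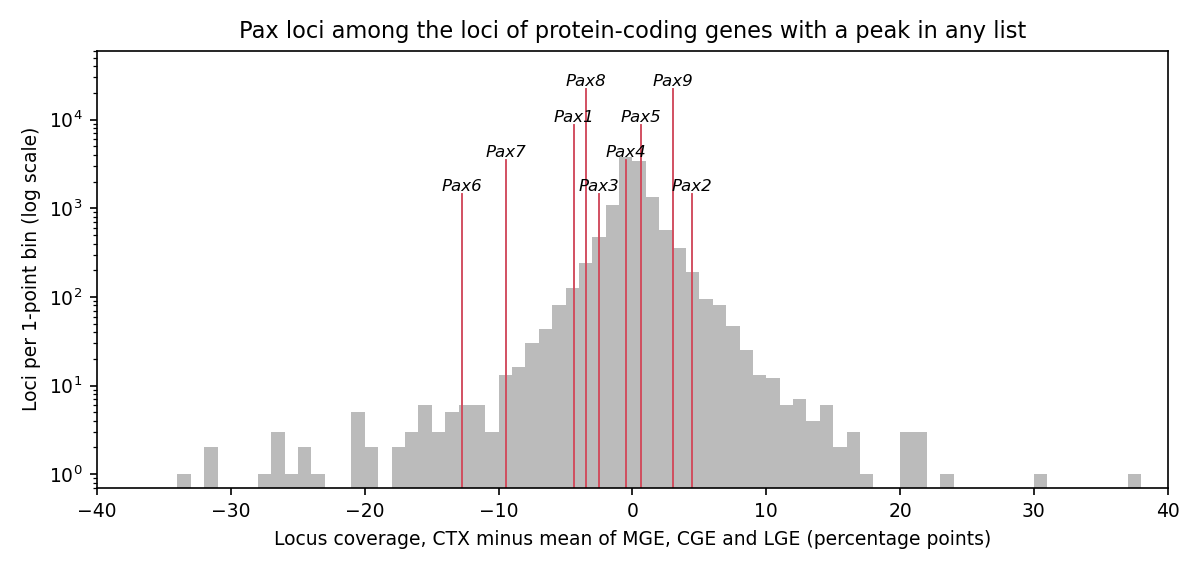
Number of loci (log axis) of the 12122 protein-coding genes with a peak in any list, in bins of 1 percentage point of the difference in locus coverage between CTX and the mean of MGE, CGE and LGE. Red lines mark the 9 Pax genes, from -12.76 at *Pax6* to 4.43 at *Pax2*.

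Sequence covered in all 4 lists was richer in CG than sequence in no list at each of the 9 loci. Over the family it held 28.6 CG per kb and 51.9% G and C against 10.8 CG per kb and 46.0%, and over the loci of all protein-coding genes 39.4 CG per kb against 9.25. At *Pax6* the bases covered in MGE alone held 32.7 CG per kb, close to the 32.3 of the bases covered in all 4 lists and above the 11.4 of those covered in none. At *Pax5* the bases covered in 1 list held 15.0 CG per kb, against 31.4 of those covered in all.

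The loci most like *Pax6* in their 4 coverage values, by Euclidean distance, were *Emx2*, *Sp8*, *Sox14*, *Dmrt3* and *Otx1*. *Emx2*, a regulator of dorsal telencephalon, lay 10.6 points away, with 46.2% (MGE), 37.7% (CGE), 36.3% (LGE) and 19.3% (CTX). *Dmrt3*, also expressed in dorsal telencephalon, had 49.3%, 33.4%, 33.5% and 12.5%. *Sp8*, which the study describes as marking progenitors of the LGE, was second nearest with 40.1%, 34.1%, 29.6% and 17.1%. *Otx1* had 40.7%, 37.6%, 28.8% and 16.0%. *Sox14* shared the high MGE value with *Pax6* but had nearly equal values of 34.4%, 34.2% and 34.1% in the other lists. A set of 10 genes of the pallium and its border was chosen with earlier results of these data known, so its counts only describe it. In this set 5 promoters were marked in all 4 lists, against 4.72% of all genes. There 4 loci (*Neurog2*, *Emx2*, *Dmrta2* and *Neurog1*) were at least 5 points lower in CTX than in each GE, against 0.464%. Other members went other ways: *Gsx2* and *Dbx1* were at least 5 points lower in MGE, with CTX above the GE mean by 12.36 and 5.11 points, and *Tbr1* was at least 5 points lower in LGE. *Neurog2*, *Emx2*, *Dmrta2* and *Neurog1* were named for being lower in CTX by 5 points, so this trait was set by the choice. *Pax6* did not pass that rule, with -4.43 points. By any margin CTX was lowest at *Pax6* and at 5 of these 10 genes, against 9.59% of all loci. At *Dmrta2* the fall was larger than at *Pax6*, from 44.4% or more in each GE to 15.6% in CTX. No expression was analysed here, so the regional labels could be set only against the mark at such pallial genes.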

How the data were processed

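Nuclei of the 4 regions were profiled by CUT&Tag. The protocol in the labels also mentions pooled nuclei of several regions, and the lists were taken as those of the labelled regions. The authors aligned reads to GRCm38 (mm10) with Bowtie2, removed blacklisted reads and duplicates, merged replicates and called broad peaks with MACS, whose version is not given in the sources used here. The deposited lists give each peak a score (not used), a fold enrichment (ratio), and -log10 values of the p-value (not used) and q-value. Read depth is not given in these lists, which held 15384 to 19196 peaks.

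Coverage was computed with Python 3.11.15 and numpy 2.4.6 as the percentage of bases under peaks on chromosomes 1 to 19 and X, with GENCODE M21 genes, and was tested on simulated peaks. A promoter was marked at 50% of its 2 kb. The genes named were the 9 Pax genes, genes annotated in their windows, the 5 nearest to *Pax6* in coverage, and members of a list of pallial and border genes where a result turned on them. A further list is not reported here. The members and lists were chosen with earlier results of these data known. Alternatives were a q-value under 0.001, peaks under 3 kb apart joined, equal numbers of peaks, equal covered bases, flanks of 0, 2 or 50 kb, and other promoter limits.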

Additional observations from a re-analysis of the deposited data

How the results depend on the processing

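With no replicates, a value was taken as the same where it kept its sign and stayed within 1.5 times the main value. Of 37 alternative values for the main results, 28 were the same, 9 moved and 0 changed direction, and of 56 for single genes 33 were the same, 17 moved and 6 changed sign. The number of promoters marked in all 4 lists, 6, ranged from 5 with a limit of 80% of bases to 9 with any 1 base, and *Pax6* kept the order MGE, CGE, LGE, CTX under all 7 alternatives for loci. The number of Pax loci lowest in CTX by 5 points, 1 (*Pax7*), was 2 (with *Pax6*) with a q-value under 0.001, with peaks under 3 kb apart joined, with equal covered bases, with no flank and with a flank of 2 kb. It was 0 with a flank of 50 kb and 3 by any margin, a choice made after seeing the data. With a flank of 50 kb, the *Pax6* difference was -6.88 and the median coverage of the family 13.73%, since the wider window holds more sequence without peaks. The difference between CTX and the GE mean changed sign at *Pax5*, from 0.61 to -0.84 with a q-value under 0.001, -0.19 with peaks joined, -1.25 with equal numbers of peaks and -1.30 with equal covered bases. It also changed sign at *Pax9*, from 3.03 to -2.04 with equal covered bases, and at *Pax4*, from -0.50 to 0.18 with a flank of 50 kb. The cause was not tested. No paired analysis was possible because each list came from merged samples and carries no replicate number, and no replicate could be left out in turn. Without read counts, weak peaks at *Pax5* and *Pax8* may depend on depth, which was not tested.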
